A study of Mus musculus with 10 samples.

Results

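Gp2 and 7 genes for secreted products of the pancreatic acinar cell were examined in the spleens of 10 PG-immunized mice. Gp2 was chosen from the measured values, because it was highest in the old non-arthritic mice, and the other genes were chosen with it as products of the same pancreatic cell. They are the protease genes Cpa1, Ctrb1, Prss2 and Cela3b, the lipase genes Pnlip and Cel, and Clps. Of these 8 genes, 7 had probe sets with their symbol alone in the platform table, against 18193 genes so named on the array, and their 14 probe sets were taken out of 45037. Pnlip had none and was not analysed here.

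All 10 animals were female BALB/c siblings. Each was injected i.p. on days 0, 21 and 42 with cartilage proteoglycan (PG, 100 µg protein) emulsified in 2 mg of the adjuvant dimethyldioctadecyl-ammonium bromide, a scheme that induces autoimmune arthritis in this strain, so no unimmunized mouse served as a control. RNA came from a 50 mg piece of each spleen at the end of the experiment and was hybridized to 1 Affymetrix array per mouse. The old arthritic group held 2 mice labelled 9 months old, and the old non-arthritic group 1 mouse of 7 and 1 of 5 months. The young arthritic group held 1 mouse of 5 and 1 of 4 months, and the young non-arthritic group 2 mice of 3 months, 1 of 2 and 1 of 1 month. Every arthritic mouse was older than the non-arthritic mice of its age group, so arthritis and age cannot be told apart within an age group. The labels do not say when age was counted, but the paper counts it at the first injection for its immunized mice. A mouse labelled 1 month old cannot have had the day 42 injection by that age, so at sacrifice it was older than its label. Ages given here are those of the labels. Values are the deposited log2 signals, array medians lay between 6.88 and 6.96, and a signal is called high or low here only against the median of its own array. Of 16 spleen marker genes on the arrays, 15 lay above the median of every array.

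Acinar cells of the exocrine pancreas store digestive enzymes in zymogen granules and release them into the duct, most of them as inactive precursors. GP2 is a glycoprotein anchored in the membrane of these granules, and it is also carried by M cells, the epithelial cells that take up antigen over Peyer's patches, where it binds fimbriated bacteria. The tail of the pancreas lies next to the spleen, and in a mixed tissue sample fewer cells of a type cannot be told apart from less RNA per cell.

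Upstream sequence was compared because acinar enzyme promoters are known to share a site of the factor complex PTF1, which joins an E-box (CANNTG) to a TTTCCC box. Both motifs and the TATA box (TATAAA) were searched on both strands in the 250 bases before the start of each gene in RefSeq (GRCm38.p6). Sequence was found for 7 of the 8 genes, all but Clps. The 3 printed here show the gene that varied among the mice, Gp2, beside a protease gene and a lipase gene of the enzyme set. They cover chr7:119459273-119459522 (minus strand) for Gp2, chr6:41521526-41521775 (plus strand) for Prss2 and chr2:28563404-28563653 (minus strand) for Cel. Each is written 5′ to 3′ in the direction of its gene and ends at the base before the start, with matches to the 3 motifs in capitals, GGGAAA being TTTCCC on the other strand.
Gp2: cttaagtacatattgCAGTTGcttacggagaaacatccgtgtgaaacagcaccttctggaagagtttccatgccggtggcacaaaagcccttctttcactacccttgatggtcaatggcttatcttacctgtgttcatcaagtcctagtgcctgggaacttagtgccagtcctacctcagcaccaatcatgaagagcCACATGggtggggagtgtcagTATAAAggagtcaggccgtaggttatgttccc
Prss2: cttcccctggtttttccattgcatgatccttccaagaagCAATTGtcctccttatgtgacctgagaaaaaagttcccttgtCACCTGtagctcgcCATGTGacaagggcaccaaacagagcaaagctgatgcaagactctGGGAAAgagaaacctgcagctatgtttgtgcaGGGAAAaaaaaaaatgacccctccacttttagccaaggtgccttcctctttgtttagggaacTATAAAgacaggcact
Cel: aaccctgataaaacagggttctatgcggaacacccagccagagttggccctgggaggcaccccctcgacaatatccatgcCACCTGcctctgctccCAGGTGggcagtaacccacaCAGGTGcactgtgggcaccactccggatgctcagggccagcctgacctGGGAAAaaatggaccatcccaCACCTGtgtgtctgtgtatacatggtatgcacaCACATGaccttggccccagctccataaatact
The Gp2 sequence held 2 matches to CANNTG, 235 and 53 bases before the start, and TATAAA at 32 bases, but no TTTCCC. The Prss2 sequence held 3 matches to CANNTG, 2 to TTTCCC at 110 and 78 bases, and TATAAA at 16 bases. The Cel sequence held 5 matches to CANNTG and 1 to TTTCCC at 86 bases. Among the 7 genes, 6 had CANNTG, 4 had TTTCCC (Cpa1, Ctrb1, Prss2 and Cel), the same 4 had both, and 3 had TATAAA (Gp2, Prss2 and Pnlip). Of 32851 mouse promoters of this length, 66.2% held CANNTG, 21.9% TTTCCC, 14.2% both and 12.4% TATAAA. A match of letters is a description and was not tested as a binding site.

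Gp2, on chromosome 7 (119442537 to 119459272), was read by 1 probe set. The old non-arthritic mice had signals of 8.51 (7 months) and 7.88 (5 months), and the old arthritic mice 7.31 and 8.26 (both 9 months). The young arthritic mice had 7.32 (5 months) and 6.85 (4 months), and the young non-arthritic mice 6.96 and 7.20 (3 months), 6.81 (2 months) and 6.68 (1 month). The old non-arthritic mice therefore lay above all young mice, while 1 old arthritic mouse lay between them and the other at the level of the 5-month-old young arthritic mouse. Group means ± SD were 8.20 ± 0.44 (n = 2), 7.78 ± 0.67 (n = 2), 7.09 ± 0.33 (n = 2) and 6.91 ± 0.23 (n = 4) in the order old non-arthritic, old arthritic, young arthritic and young non-arthritic. Neighbours in this order differed by 0.41, 0.70 and 0.17 against a pooled SD of 0.39, and the ranges of all 3 neighbouring pairs overlapped. Gp2 was above the array median in 7 of 10 mice, and in the other 3, all young, it was below. The values hold no detection call, so whether the lowest signals stood above background was not tested.

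**Figure D1:**
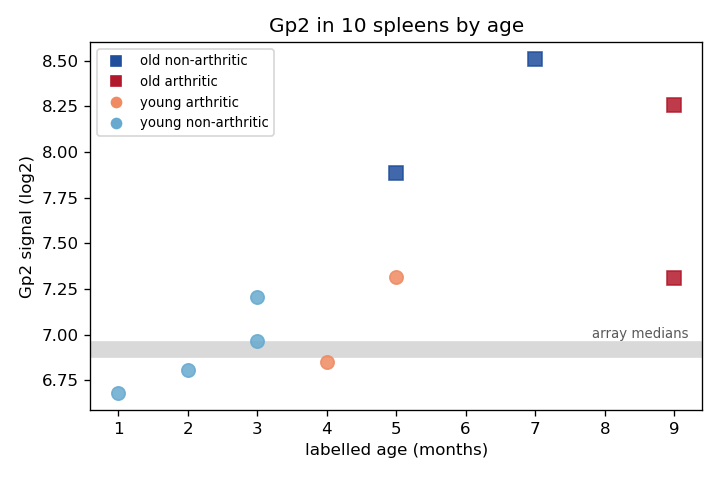
Log2 signal of Gp2 (vertical axis) against labelled age in months (horizontal axis), 1 point per mouse, with squares for the old groups, circles for the young groups and the grey band spanning the array medians (6.88 to 6.96). The 5 mice of 5 months or more sit between 7.31 and 8.51 and the 5 younger mice between 6.68 and 7.20.

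Ordered by labelled age rather than by group, the 5 mice aged 5 months or more had Gp2 signals of 7.31 to 8.51 (mean 7.86 ± 0.54, SD), and the 5 mice aged 4 months or less had 6.68 to 7.20 (mean 6.90 ± 0.20). The gap between these ranges was 0.11, smaller than the pooled SD of 0.39, and the border between 4 and 5 months was placed after the values were seen. The same mice were separated, in either direction, by 0.702% of all probe sets tested and by none of the 13 enzyme and cofactor probe sets. At 5 months, the 1 old non-arthritic mouse had a Gp2 signal of 7.88 and the 1 young arthritic mouse 7.32. Between the mice of 9 months the difference was larger, with 8.26 and 7.31. The levels of Gp2 in the old groups are a description, since the gene was picked on them. Its difference between young arthritic and young non-arthritic mice did not enter that choice and was 0.17 (SE 0.28; limma, adjusted p = 0.761), with a 95% interval from -0.46 to 0.81. The SE, p and interval draw on the spread within all groups, the old ones included, so they are not free of that choice.

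**Figure D2:**
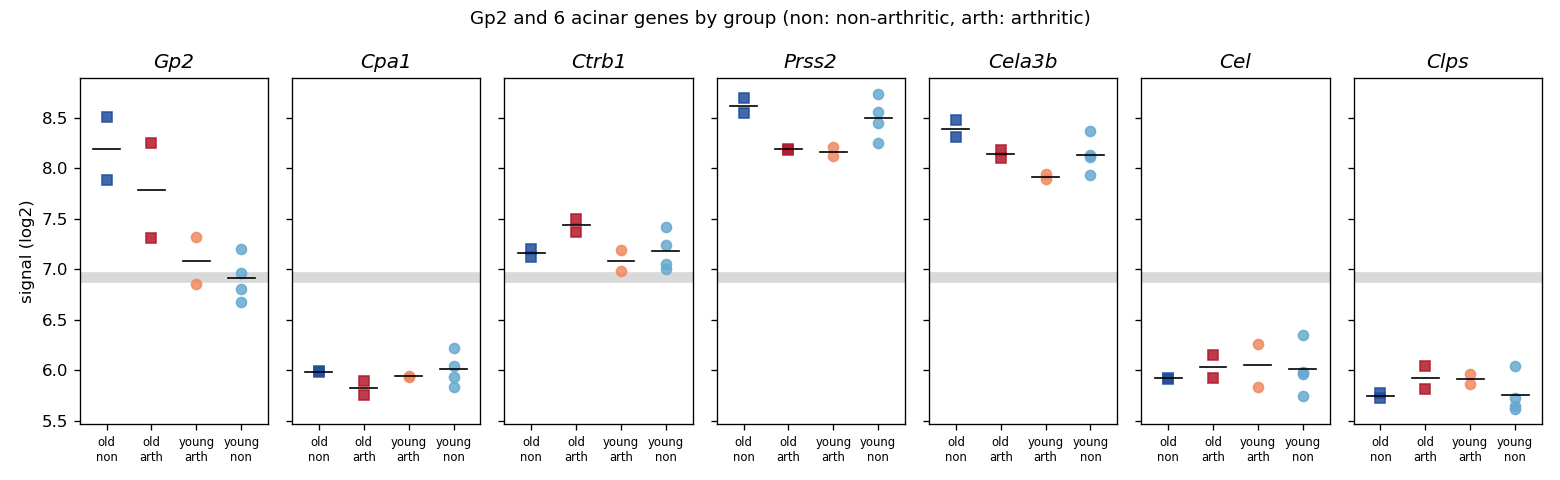
Log2 signal (vertical axis) of the representative probe set of Gp2 and 6 acinar genes in the 4 groups (horizontal axis), with 1 point per mouse, a bar at each group mean and the grey band spanning the array medians. Gp2 spans 1.83 log2 units, Cpa1, Cel and Clps stay below the band in every mouse, and Prss2, Cela3b and Ctrb1 stay above it.

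The protease genes were measured by 10 probe sets. Prss2, a trypsinogen gene on chromosome 6 (41521776 to 41525079), had 4 of them, and the brightest gave 8.55 and 8.70 in old non-arthritic, 8.18 and 8.20 in old arthritic, 8.12 and 8.21 in young arthritic and 8.25, 8.45, 8.56 and 8.74 in young non-arthritic mice. The mouse with the highest Prss2 signal, 8.74, was the 1-month-old mouse with the lowest Gp2 signal, 6.68. With this probe set all 4 arthritic mice (8.12 to 8.21) lay below all 6 non-arthritic mice (8.25 to 8.74), as was so, in 1 direction or the other, for 12.1% of all probe sets tested. Calls for arthritis with age in months in the fit were made for 2.26% of all, and this probe set was not among them. The other Prss2 probe sets ranged over 7.39 to 7.94, 7.71 to 8.05 and 4.86 to 5.29, and in each of these the arthritic and non-arthritic mice overlapped. Trypsinogen genes are near-identical copies, and these 3 probe sets carry the array maker's mark for probes that can bind other transcripts, so which copy they read is uncertain.

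Cela3b, the gene of a chymotrypsin-like elastase on chromosome 4 (137421008 to 137430520), gave 8.31 and 8.48 in old non-arthritic, 8.10 and 8.19 in old arthritic, 7.90 and 7.94 in young arthritic and 7.93, 8.11, 8.14 and 8.37 in young non-arthritic mice with its brightest probe set. The highest signal was in the old non-arthritic mouse that was also highest for Gp2, but the 1-month-old mouse came next. The other 3 Cela3b probe sets stayed below the median of every array, between 5.85 and 6.87, and a probe set that Cela3b shares with another elastase gene read 3.72 to 4.39. The probe sets of Cela3b thus disagreed on whether the gene was above the array median. Those at 6.40 to 6.87 and 5.85 to 6.37 carry the array maker's mark described for Prss2, so which transcript they read is uncertain. The dim one at 6.01 to 6.28 does not carry it.

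Ctrb1, the gene of a chymotrypsinogen on chromosome 8 (111686510 to 111691010), lay just above the array medians in all mice, with 7.12 and 7.20 in old non-arthritic, 7.37 and 7.50 in old arthritic, 6.98 and 7.19 in young arthritic and 7.00, 7.05, 7.24 and 7.42 in young non-arthritic mice. The 2 old arthritic mice were near the upper end, and their range overlapped that of the young non-arthritic mice. Cpa1, the gene of carboxypeptidase A1 on chromosome 6 (30639218 to 30645361), had 1 probe set, at 5.98 and 5.99 in old non-arthritic, 5.76 and 5.90 in old arthritic, 5.94 and 5.94 in young arthritic and 5.84, 5.93, 6.04 and 6.22 in young non-arthritic mice. All 10 values were below the array medians, and the highest was again in the 1-month-old mouse.

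Lipid digestion was represented by 2 genes with probe sets. Cel, the gene of the bile salt-stimulated lipase on chromosome 2 (28555819 to 28563403), gave 5.91 and 5.93 in old non-arthritic, 5.92 and 6.15 in old arthritic, 5.84 and 6.26 in young arthritic and 5.74, 5.97, 5.98 and 6.35 in young non-arthritic mice. Clps, which encodes the cofactor of pancreatic lipase and lies on chromosome 17 (28558210 to 28560766), gave 5.72 and 5.78, 5.81 and 6.04, 5.86 and 5.96, and 5.62, 5.64, 5.73 and 6.04 in the same order of groups with its brighter probe set. The lipase gene and the cofactor gene were below the median of every array, and all 4 groups overlapped for Cel. In the 3 mice with Gp2 signals of 8.51, 8.26 and 7.88, Cpa1 read 5.98, 5.90 and 5.99, Cel 5.91, 6.15 and 5.93 and Clps 5.72, 5.81 and 5.78. These signals lay inside the ranges of the other 7 mice for each of the 3 genes. For the 3 brighter genes, the same mice read 8.48, 8.10 and 8.31 for Cela3b, 7.12, 7.50 and 7.20 for Ctrb1 and 8.70, 8.18 and 8.55 for Prss2. The 8.48 of Cela3b and the 7.50 of Ctrb1 lay above all of the other 7 mice, whose highest values were 8.37 and 7.42, while the Prss2 values lay inside their range.

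**Figure D3:**
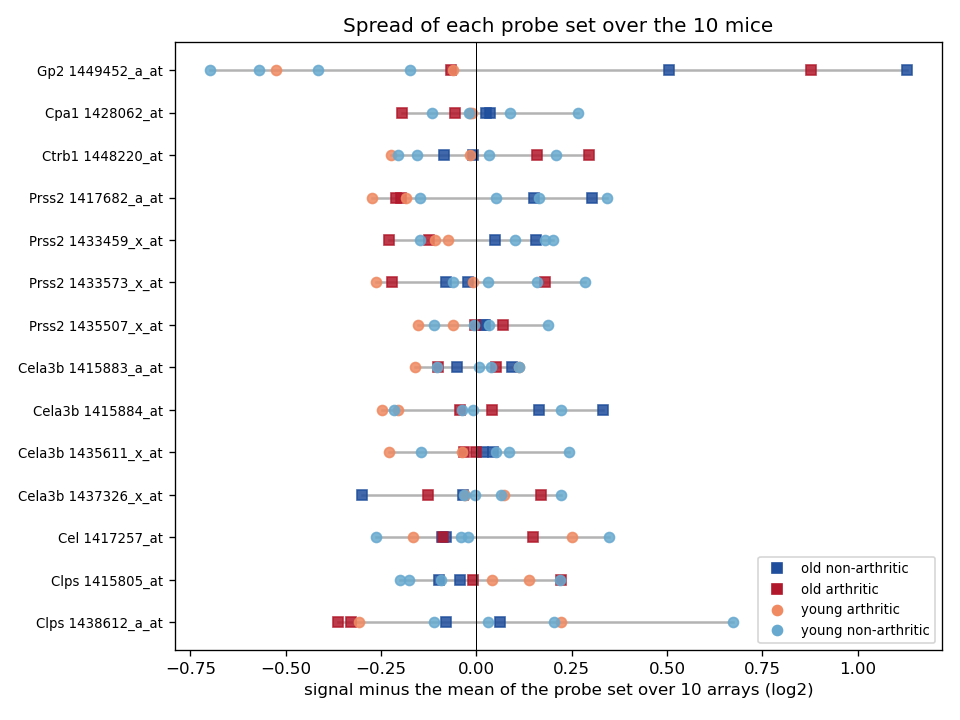
Each mouse's log2 signal minus the mean of the probe set over the 10 arrays (horizontal axis) for the 14 probe sets of the 7 measured genes (vertical axis, gene and probe set number), with colours for the groups and a grey line from the lowest to the highest mouse. Gp2 spans 1.83, while the 13 enzyme and cofactor probe sets span 0.27 to 1.04.

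The spread of Gp2 was wider than that of the genes chosen with it. Gp2 ranged over 1.83 on the log2 scale, wider than 98.7% of all probe sets, which is a description of a gene picked for its high values. The 13 enzyme and cofactor probe sets ranged over 0.27 to 1.04 with a median of 0.52, beside a median of 0.53 over all probe sets. The widest of them was the dimmer Clps probe set, whose highest value, 5.04, was in the 2-month-old mouse. The mean of the 6 measured enzyme and cofactor genes per mouse lay between 6.77 (a young non-arthritic mouse of 3 months) and 7.09 (the 2-month-old mouse), a range that averaging over genes narrows.

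Over the 10 arrays, Pearson's r with Gp2 was 0.46 for Cela3b, 0.14 for Ctrb1, 0.09 for Prss2, -0.05 for Cel, -0.14 for Clps, -0.24 for Cpa1 and 0.13 for the mean of the 6 genes. The share of all tested probe sets with a higher r was 6.76% for Cela3b, 32.1% for Ctrb1 and 36.8% for Prss2. It was 51.4% for Cel, 61.1% for Clps and 70.7% for Cpa1. These are descriptions over 10 mice that share age and arthritis differences. Leaving out 1 mouse moved the value of Cela3b to between 0.13 and 0.73, the lowest without the old non-arthritic mouse of 7 months and the highest without the 1-month-old mouse. For the other 5 genes the sign turned when some 1 mouse was left out. For Prss2 the values ran from -0.29 to 0.38, and for Ctrb1 from -0.21 to 0.32.

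Of the 13 enzyme and cofactor probe sets, 5 passed the filter on dim values (above the median of the array in at least 2 arrays), 3 of Prss2 and 1 each of Cela3b and Ctrb1, and all 5 were above it in every array. Between the old and the young non-arthritic group, the comparison that the design text of the array series gives first, limma called 0 of these 5 at an adjusted p under 0.05, and 0 reached an unadjusted p of 0.05. Of all 23805 probe sets tested, 0% were called and 759 reached that unadjusted p. The largest difference was that of Cela3b, 0.26 (SE 0.12; limma, adjusted p = 0.997), with an interval from -0.01 to 0.52, and that of Prss2 (brightest probe set) was 0.12 (SE 0.13). Among the same groups the means of Gp2 were 8.20 and 6.91.

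Arthritic mice were next compared with the younger, non-arthritic mice of their age group. Arthritis in old mice gave limma calls for 0 of the 5 enzyme probe sets, with 0.0714% of all probe sets called, and 1 of the 5 reached an unadjusted p of 0.05, as did 18.6% of all. It was the brightest Prss2 probe set, lower in the arthritic mice (-0.43, SE 0.15; limma, adjusted p = 0.174). Arthritis in young mice gave 0 of 5, with 0.311% called among all, and the same 1 probe set of Prss2 was the only one to reach that unadjusted p (-0.33, SE 0.13; limma, adjusted p = 0.225), beside 18.2% of all. When the effect of arthritis in the old group was set against that in the young group, limma called 0 of 5, with 0% among all and 0 of the 5 at an unadjusted p of 0.05 beside 3.1% of all, and the value for this probe set was -0.10 (SE 0.19).

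With age in months in the fit as a straight line, arthritis was compared at what is called equal age here. Arthritic and non-arthritic mice shared a labelled age only at 5 months, so this comparison rests on that line. In it limma called 0 of 5 enzyme probe sets beside 2.26% of all, and 2 of the 5 reached an unadjusted p of 0.05, as did 22.9% of all. These were Prss2 at -0.39 (SE 0.12; limma, adjusted p = 0.0936) and Cela3b at -0.34 (SE 0.12; limma, adjusted p = 0.130), both with lower signals in arthritic mice. Both passed the threshold when arrays were weighted by their quality (limma, adjusted p = 0.0117 and 0.0153), a fit that called 20.4% of all probe sets, and Prss2 passed it without young non-arthritic replicate 1 (limma, adjusted p = 0.0468). The other 2 Prss2 probe sets differed by -0.12 and -0.10 and did not pass under any alternative. The median difference over the 5 was -0.12, and over all probe sets it was 0.09. Ctrb1 differed by 0.02 (SE 0.14), with an interval from -0.29 to 0.33. When all probe sets were fitted without the filter, 0 of the 13 enzyme and cofactor probe sets were called by limma in any of the 5 comparisons, with 0 to 3 at an unadjusted p of 0.05. In the order given above, these fits called 0%, 5.06%, 7.07%, 0% and 12.2% of all probe sets.

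The wider acinar program was described with 3 further lists. Over the 10 arrays, r of the list mean with Gp2 was 0.36 for other digestive enzymes and cofactors, 0.64 for granule and other acinar proteins and 0.47 for acinar transcription factors, all higher than the 0.13 of the 6 measured enzyme and cofactor genes. Leaving out 1 mouse moved the r of the 3 lists to between 0.25 and 0.69, 0.47 and 0.77, and 0.17 and 0.57. The median r of their single probe sets was 0.23, 0.15 and 0.27. The 3 list means moved over 0.30, 0.21 and 0.28 on the log2 scale, and most of the probe sets behind them lay below the array medians. Of 22 other digestive enzyme and cofactor genes, 11 had 15 probe sets, of which 13 lay below the median of every array. The 2 tested (Cela1 and Ctrl) were called by limma in none of the 5 comparisons. Both reached an unadjusted p of 0.05 for arthritis in young mice, Cela1 higher and Ctrl lower, as did 18.2% of all, and neither in the other comparisons. Cela1, another elastase gene, was the bright exception at 10.53 to 10.95, with an r with Gp2 of 0.53, and Ctrl, a chymotrypsin-like protease gene, read 6.77 to 7.53. Of 20 genes for granule and other acinar proteins, 19 had 28 probe sets, 21 of them below the median of every array. Of the 7 tested, limma called 0. That unadjusted p was reached by 2 for arthritis in old mice and by 1 each in young mice and at equal age. The shares of all probe sets were 18.6%, 18.2% and 22.9%. Of 10 acinar transcription factor genes, 8 had 17 probe sets, 14 of them below the median of every array. Of the 3 tested, limma called 0. That unadjusted p was reached by 2 at equal age and by 1 for arthritis in old mice, beside 22.9% and 18.6% of all. Bhlha15, whose factor MIST1 also acts in plasma cells, was the brightest of the transcription factor genes, between 8.43 and 9.74. Its highest value was in the old arthritic mouse with the Gp2 signal of 8.26. Rbpjl, the acinar partner in PTF1, had 2 probe sets below the median of every array that disagreed, 1 at 6.28 to 6.77 with an r with Gp2 of -0.12 and 1 at 5.73 to 6.44 with an r of 0.72.

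Dim acinar genes could be compared only without the filter. In that fit of all probe sets, arthritis at equal age gave calls for 12.2% of probe sets, and for 10 of 60 probe sets of these 3 lists, 3 higher and 7 lower in arthritic mice. Cela2a, an elastase gene named here after its values were seen, had the smallest p. Its signals were 4.67 to 4.79 in the 4 arthritic mice and 5.47 to 6.06 in the 6 non-arthritic mice, so the groups did not overlap, as in 17.4% of all probe sets without the filter (-0.87, SE 0.13; limma, adjusted p = 0.00278). All its values were below the array medians. Its r with Gp2 was -0.14.

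Other tissues and cells in which Gp2 is known, or that lie by the spleen, were examined in the same way. Of the 12 M cell genes, 9 were above the median of every array, led by Clu, Spib and Marcksl1, genes that spleen cells also express. The mean of the list lay between 9.23 and 9.59 with an r with Gp2 of -0.31, and the lowest value was in the mouse with the highest Gp2 signal. Of 22 M cell probe sets, 16 were tested and 1 was called, that of the chemokine gene Ccl9, higher in arthritic mice at equal age (0.52, SE 0.11; limma, adjusted p = 0.0486), where 2.26% of all probe sets were called. A further Ccl9 probe set was not called there (0.44, SE 0.13; limma, adjusted p = 0.0928). An unadjusted p of 0.05 was reached by 7 of the 16 for arthritis in young mice, 7 at equal age and 4 in old mice. The shares of all probe sets were 18.2%, 22.9% and 18.6%. In old against young non-arthritic mice 2 reached it, beside 3.19% of all. Among 10 relatives of Gp2 with a zona pellucida domain, limma called 0 of 5 probe sets tested and 0 reached an unadjusted p of 0.05 in any comparison, and Umod, which encodes uromodulin, the closest of them to GP2, read 3.58 to 4.20. Of 18 islet probe sets, 16 lay below the median of every array, Ins2, an insulin gene, read 6.96 to 7.31, and r of the list mean with Gp2 was 0.61 over a range of 0.24.

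Fat and capsule (mesothelium) genes had wider ranges, with a median over their probe sets of 0.73 and 1.07. The adipose list (8 of 10 genes, 17 probe sets, 6 above the median of every array and 9 below it in every array) had a mean of 7.37 and 7.98 in old non-arthritic, 7.07 and 7.80 in old arthritic, 7.76 and 7.88 in young arthritic and 7.05 to 7.66 in young non-arthritic mice. The mouse highest for Gp2 was also the highest for this list, but a young arthritic mouse with a low Gp2 signal, 6.85, came next, and r with Gp2 was 0.42. Lpl and Fabp4, the brightest genes of the list, ranged from 11.38 to 12.03 and from 9.45 to 10.75, with an r with Gp2 of -0.39 and 0.46. Adipoq, the adiponectin gene, ranged from 5.42 to 7.99 (r 0.43), and Car3, a carbonic anhydrase gene of fat and muscle, from 8.47 to 11.06 (r 0.44). Cyp2e1, a cytochrome P450 gene of liver and fat, ranged from 5.78 to 8.34, was highest in the old non-arthritic mouse of 7 months and had an r of 0.73 with Gp2. The mesothelium list had an r of -0.70 and was lowest, at 7.15, in the old arthritic mouse with the Gp2 signal of 8.26. The part of fat or capsule in the Gp2 values was not tested. The mean of the spleen list stayed between 10.56 and 10.79, with 1 of 27 probe sets tested called, that of Nkx2-5, higher in arthritic mice at equal age (0.49, SE 0.09; limma, adjusted p = 0.0364), again beside 2.26% of all. No probe set of the adipose, mesothelium, islet, pancreatic duct, stomach, liver, kidney or small intestine lists was called by limma in any comparison. Per list and comparison, 0 to 6 reached an unadjusted p of 0.05. The 6 were among 13 mesothelium probe sets tested for arthritis in old mice, beside 18.6% of all. In young mice and at equal age this list had 1 and 2 of 13, beside 18.2% and 22.9%. The adipose list had 3 of 8, beside 3.1% of all, when the old group's arthritis effect was set against the young group's. Over the 10 arrays, r with Gp2 was 0.62 for the mean of the liver list, which holds Cyp2e1, and 0.58 for kidney. It was 0.30 for stomach, 0.24 for small intestine and -0.34 for pancreatic duct. Leaving out 1 mouse gave 0.22 to 0.84 for liver, 0.44 to 0.76 for kidney and 0.007 to 0.44 for stomach. The sign turned for small intestine (-0.28 to 0.49) and pancreatic duct (-0.70 to 0.05).

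**Figure D4:**
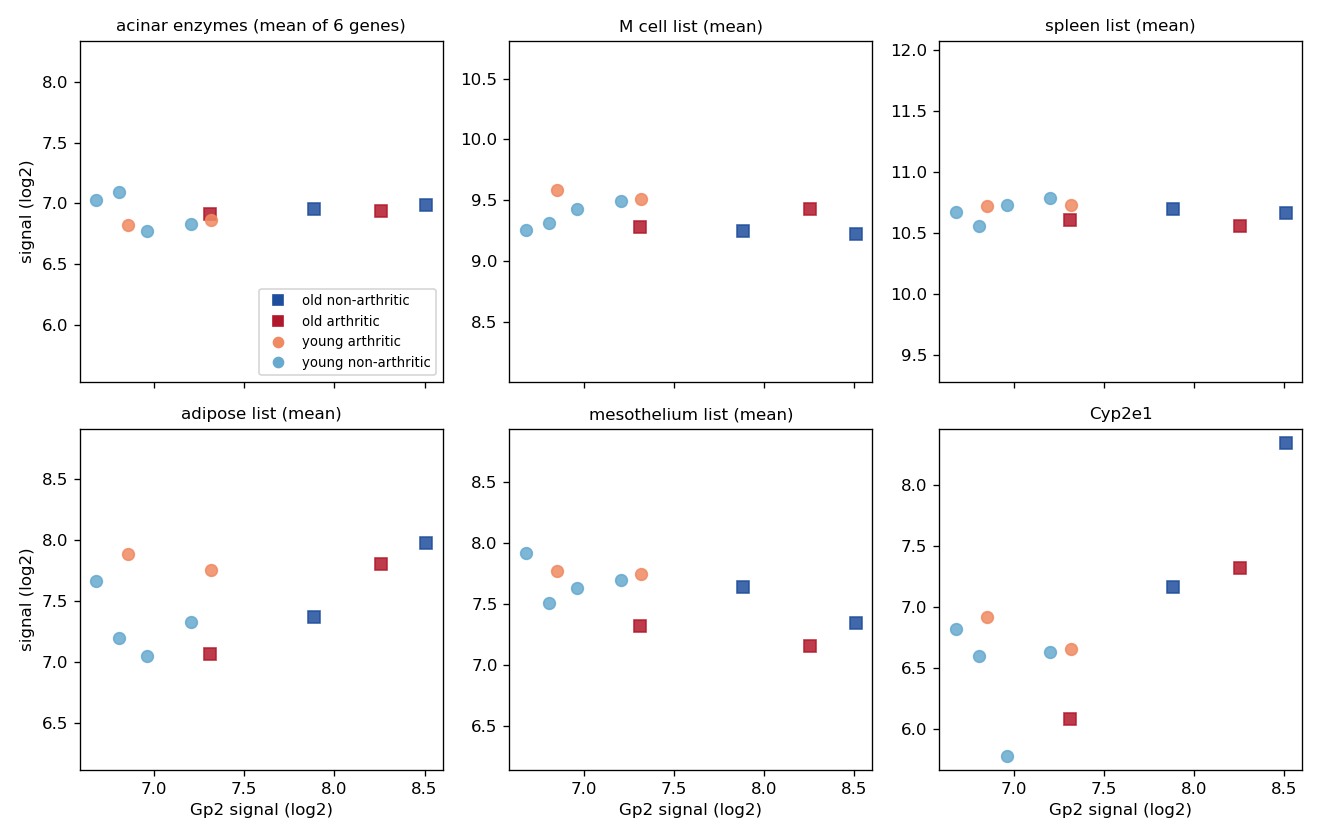
Log2 signal of Gp2 (horizontal axes) against the mean log2 signal of 5 gene lists and the signal of Cyp2e1 (vertical axes, all spanning the same number of log2 units), 1 point per mouse, with colours and shapes for the groups. The enzyme mean lies between 6.77 and 7.09, and Cyp2e1 is highest, at 8.34, in the mouse highest for Gp2.

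The genes whose pattern over the 10 arrays was most like that of Gp2, by Pearson's r among tested probe sets, were Hrh3, Cdk5rap2, Syndig1l, Snap47 and Cbs (r = 0.85 each), followed by Gh, Gna14, Zbtb32 and Zbtb5 (0.83 each) and Csnk1d (0.82). Their own ranges were 0.18 to 0.98, all narrower than that of Gp2, and none was on the lists of acinar, islet or M cell genes. Only tested probe sets could be named, and few of the acinar and islet lists were tested. These were 2 of 15, 7 of 28 and 3 of 17 acinar and 1 of 18 islet probe sets, beside 16 of 22 for M cells. The absence of acinar and islet genes therefore says little about those lists. The genes most like the mean of the 6 enzyme and cofactor genes were others, led by Ccdc28a (0.91) and Lgals4 (0.89), and no gene stood among the 10 nearest to both. These are the highest values out of all named genes tested over 10 arrays and are given as a description.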

How the data were processed

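Spleen RNA of 10 mice was measured with 1 array each, and the labels call the mice of a group biological replicates. The values the authors deposited are log2 signals, 1 for each probe set, from RMA (background correction, quantile normalization and summary of probes) by the submitters' processing notes, whose version was not given in the sources used here. No methods text of the paper describes the arrays. Of 45101 rows, 64 controls were left out. Of the other 45037 probe sets, 34945 carried 1 symbol in the platform table, 932 several and 9160 none, and only the first were named. Probe sets that exceeded the array median in at least 2 arrays (23805) were tested with limma 3.58.1 in R 4.3.3 (lmFit, eBayes, Benjamini-Hochberg over all of them, threshold 0.05). One fit held a mean for each group (6 residual degrees of freedom), and another held arthritis and age in months as a straight line (7). The number of arrays limits the precision, and p-values rest on the spread among the mice. The fit was tested on simulated data.

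All probe sets of the 8 genes were described, whatever their values. A gene was represented by its probe set with the highest mean, and a list by the mean of its genes. Named from each list were up to 4 genes with the highest mean and those called, and the 10 genes nearest to Gp2 and to the enzyme mean. Adipoq, Cyp2e1, Cela2a, Rbpjl and Umod, and the genes of those lists named by r, were added for their role or after their values were seen. The 8 genes, the lists and the tests were chosen with earlier results of these data known. Alternatives covered the filter, centring, quantile normalization, a trended spread, array weights, the replicate block, the groups in the fit and leaving out each mouse. Mice were treated as unpaired. Deviations of the 12 pairs with the same replicate number correlated from -0.53 to 0.36. In groups of 2 mice the deviations mirror each other, so some of these values repeat, and they cannot settle whether the numbers pair the mice. Figures were drawn with matplotlib 3.10.9.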

Additional observations from a re-analysis of the deposited data

How the results depend on the processing

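The count of enzyme probe sets called, 0 of 5 in each of the 5 comparisons, stayed at 0 under every alternative in 4 of them. At equal age it was 2 with array weights (Cela3b, -0.37, adjusted p = 0.0153; Prss2, -0.41, adjusted p = 0.0117; limma), a fit that called 4857 of all 23805 probe sets (20.4%), and 0 to 1 when 1 mouse was left out, the 1 being Prss2 without young non-arthritic replicate 1 (-0.44, adjusted p = 0.0468; limma), a fit with 559 calls in all. Over all alternatives the adjusted p at equal age ran from 0.0117 to 0.396 for Prss2 and from 0.0153 to 0.447 for Cela3b.

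Over all probe sets the counts were far less stable. They ran from 0 to 2 in old against young non-arthritic mice, 0 to 2280 for arthritis in the old group, 0 to 3186 in the young group, 0 to 55 for the difference between these effects and 0 to 5475 at equal age. For these last arthritis comparisons, other than the difference, the highest count came without the filter.

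Small differences turned sign, none of them called. With the replicate number as a block these were the Prss2 probe set at 7.71 to 8.05 (0.080) and Ctrb1 at 0.13 in old against young non-arthritic mice and Ctrb1 at 0.060 for arthritis in young mice. The block gave 0 enzyme calls, as without it. With array weights Ctrb1 was -0.030 at equal age. Leaving out 1 mouse gave -0.050 to 0.049 for the Prss2 probe set at 7.71 to 8.05 and -0.076 to 0.062 for Ctrb1 in old against young non-arthritic mice. It gave -0.17 to 0.23 for the Prss2 probe set at 7.39 to 7.94 and -0.026 to 0.048 for that at 7.71 to 8.05 for arthritis in old mice, and -0.20 to 0.014 for Ctrb1 and -0.060 to 0.40 for Gp2 in young mice. It gave -0.12 to 0.052 for Cela3b for the difference between the effects, and -0.17 to 0.026 for the Prss2 probe set at 7.39 to 7.94 and -0.073 to 0.16 for Ctrb1 at equal age. The cause was not tested.

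The Gp2 difference between old arthritic and old non-arthritic mice, -0.41, was 0.06 without old arthritic replicate 1 and -0.89 without old arthritic replicate 2. Averaging all probe sets of a gene lowered the levels of Prss2 to 7.11 to 7.33, of Cela3b to 6.68 to 6.81 and of Clps to 4.97 to 5.16 over the groups. Groups of 2 mice and signals near or below the array median limit what these arrays can show for the enzymes.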
